A study of Mus musculus with 62 samples.

Results

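H3K27 acetylation (H3K27ac), a mark of active promoters and enhancers, was lower in Daxx-KO than in WT haematopoietic stem and progenitor cells (HSPCs) at both 3 and 24 weeks post induction (w.p.i.) at 15722 autosomal sites. These lasting losses are the sites listed at 24 w.p.i. that shared at least 1 bp with a site listed at 3 w.p.i. and at which both Daxx-KO libraries lay below both WT libraries in both lists. They are 15722 of 193657 autosomal sites of the 24 w.p.i. list. The sites were thus selected on their own H3K27ac values at both times, so those values are given as a description, without a test.

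The study profiled HSPCs by CUT&Tag, in which a tethered transposase cuts the DNA around an antibody. HSPCs came from the bone marrow of C57BL/6 mice, by magnetic enrichment of cells that lacked lineage markers and carried c-Kit. WT mice had the genotype Daxx +/+ and Daxx-KO mice Daxx F/F, and both carried Cre (Cre +/-). Double-knockout (DKO) mice, also Cre +/-, carried floxed alleles (F/F) of Daxx as well as of Pu.1. According to the study's methods, the mice of this kind carried Mx1Cre, which an injected double-stranded RNA analogue (pI:pC) switches on through interferon, in the WT mice too. The Cre line is not in the labels, nor are the ages of the mice. Each H3K27ac comparison had 2 Daxx-KO and 2 WT libraries, and no mouse number in the headers occurs at both 3 and 24 w.p.i. The H3.3, Pu.1 and H3K9me3 tables at 3 and 24 w.p.i. and the H3K27me3 table at 24 w.p.i. had 2 libraries per group, and the tables at 8 w.p.i. had 3. At 24 w.p.i. the other marks came from the same 4 mice as H3K27ac.

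Daxx is a chaperone that places the histone variant H3.3 into chromatin, among other places at silent repeats that carry H3K9 trimethylation (H3K9me3). Acetylation of H3K27 is laid down by p300 and CBP and removed by histone deacetylases, and it excludes trimethylation of the same lysine (H3K27me3), the mark of Polycomb repression. Pu.1, the product of Spi1, is a transcription factor of myeloid and lymphoid cells, whereas Gata1 with its cofactor Zfpm1 directs the erythroid lineage.

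The sequences below show what the lasting losses nearest to erythroid genes look like, since these genes held the largest share of such sites among the gene lists examined. Of the 37 lasting losses nearest to erythroid genes, 11 held the GATA word AGATAAG, on either strand, somewhere in the site. Over all lasting losses 15.4% did, and over all listed sites 10.9%. The lasting losses were also longer than all listed sites, with a median of 900 bp against 800 bp. A longer site has more room for a word. The lengths of the 37 sites were not compared with the others, so their share with the word is a description only. For each of 4 genes the site of largest drop with the word outside annotated untranslated regions is shown, from the mm10 genome (GRCm38.p6), plus strand, with the word in capitals as it reads on that strand.
Slc4a1 (chr11:102363767-102363923): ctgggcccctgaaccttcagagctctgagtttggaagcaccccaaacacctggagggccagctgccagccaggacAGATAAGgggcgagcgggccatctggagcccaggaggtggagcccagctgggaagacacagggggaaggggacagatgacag
Sptb (chr12:76673864-76674020): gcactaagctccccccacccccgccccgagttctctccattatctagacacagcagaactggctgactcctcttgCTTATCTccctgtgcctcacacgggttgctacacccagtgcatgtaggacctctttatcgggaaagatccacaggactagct
Ank1 (chr8:23030586-23030742): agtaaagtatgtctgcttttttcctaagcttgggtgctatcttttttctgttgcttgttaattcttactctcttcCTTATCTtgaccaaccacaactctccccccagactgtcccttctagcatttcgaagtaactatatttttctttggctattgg
Zfpm1 (chr8:122317429-122317585): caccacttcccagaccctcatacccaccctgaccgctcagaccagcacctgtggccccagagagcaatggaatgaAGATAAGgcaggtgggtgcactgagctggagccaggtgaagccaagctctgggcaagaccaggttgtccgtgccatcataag
The Slc4a1 word lies near the promoter of the gene of band 3, the anion exchanger of red cells, and the other 3 lie in distal sites. Sptb and Ank1 encode the spectrin and ankyrin of the red-cell skeleton, and Zfpm1 encodes the GATA cofactor Fog1. Beside these, a pair of sites shows the Pu.1 word GAGGAAGT. They were chosen because the nearest gene was in one of the lists and a Pu.1 site there had lower values in both Daxx-KO libraries at 24 w.p.i.
Lmo2 (chr2:103958266-103958423): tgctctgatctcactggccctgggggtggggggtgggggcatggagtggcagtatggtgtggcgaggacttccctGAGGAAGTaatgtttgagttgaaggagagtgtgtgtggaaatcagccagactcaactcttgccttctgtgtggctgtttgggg
Foxo1 (chr3:52630362-52630519): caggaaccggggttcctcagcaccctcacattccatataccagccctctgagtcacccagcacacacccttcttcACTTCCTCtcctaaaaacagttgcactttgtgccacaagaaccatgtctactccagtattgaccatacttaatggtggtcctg
Lmo2 encodes a bridging factor of the stem-cell transcription complex and Foxo1 a forkhead factor of lymphoid development. The Lmo2 site is a promoter site, 630 bp from the TSS at its middle. The Foxo1 site is distal, 361539 bp from the TSS of Foxo1, which is only the nearest protein-coding gene. Of 66 such sites, 5 (7.58%) held the Pu.1 word anywhere in the site, against 10.1% of all lasting losses and 7.3% of all listed sites. A match is a word in the sequence and not a measured binding site.

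Across the lasting losses, the signal in WT HSPCs was well above that in Daxx-KO HSPCs at both times. The values are normalized counts, that is, reads in the site divided by a constant for each library. At 24 w.p.i. the WT libraries had a median of 89.4 and 85.4 over the 15722 sites, and the Daxx-KO libraries one of 28.5 and 29.3. At 3 w.p.i. it was 22.6 and 19.9 in WT and 3.88 and 2.55 in Daxx-KO. The libraries of a group lay close to each other at 24 w.p.i. At 3 w.p.i. the Daxx-KO libraries were further apart, with 2421 and 4015 of the sites at 0. The 3 w.p.i. libraries were shallow, with 1.33 to 2.26 reads per window of 600 bp on average against 3.97 to 10.3 at 24 w.p.i. At 3 w.p.i. both Daxx-KO libraries were at 0 at 1040 of the sites (6.61%), and at 24 w.p.i. at 30 of them (0.191%). At such sites the depth sets a limit to the size of the drop.

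**Figure D1:**
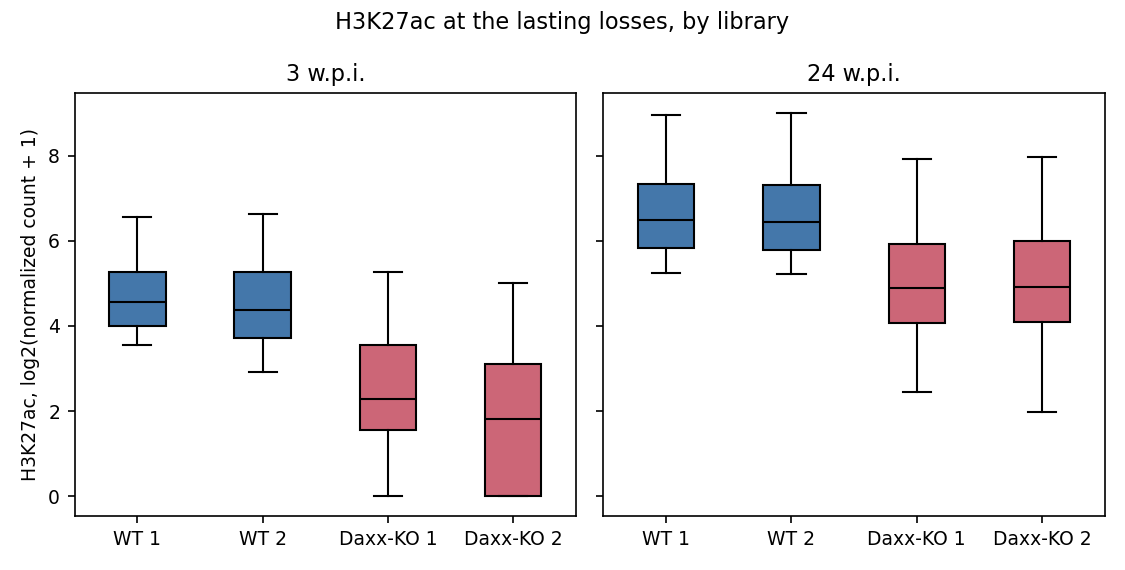
H3K27ac at the 15722 lasting losses in each library, as log2(normalized count + 1), at 3 and 24 w.p.i. Boxes span the quartiles with the median as a line, and whiskers reach from the 5th to the 95th percentile. The medians of both Daxx-KO libraries lie below the lower quartiles of both WT libraries at each time.

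Drops are given below as log2((mean WT + 1)/(mean Daxx-KO + 1)). At 24 w.p.i. the drop had a median of 1.5, quartiles of 1.15 and 1.98 and a range of 0.04 to 6.39. At 3 w.p.i. the median was 2.28, with quartiles of 1.82 and 2.71. The WT mean was at least 2 times the Daxx-KO mean in both lists at 13245 sites (84.2%), with the 3 w.p.i. site that overlaps most, and at least 4 times at 3577 (22.8%). At 12788 sites (81.3%) the drop at 3 w.p.i. was larger than that at 24 w.p.i. The lists as a whole differed the same way, with a median log2 difference of all listed sites, Daxx-KO over WT, of -1.81 at 3 w.p.i. and -1.01 at 24 w.p.i. Sites with a large drop at one time tended weakly to have a large drop at the other, with r = 0.3 and rho = 0.32 over the 15722 sites, whose values share libraries within each time. The level of signal moved too. Over the genome, a window averaged 8.38 and 8.17 normalized counts in the WT libraries at 24 w.p.i., and 5.39 and 5.84 in Daxx-KO. With the libraries set to equal reads per window, 12563 of the 15722 sites (79.9%) met the rule and the median drop of the 15722 at 24 w.p.i. was 0.95 instead of 1.5. The same scaling moved the median of all listed sites at 24 w.p.i. from -1.01 to -0.46. Whether less acetylation per cell or fewer cells that carry it set the values cannot be told apart in such pooled cells.

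**Figure D2:**
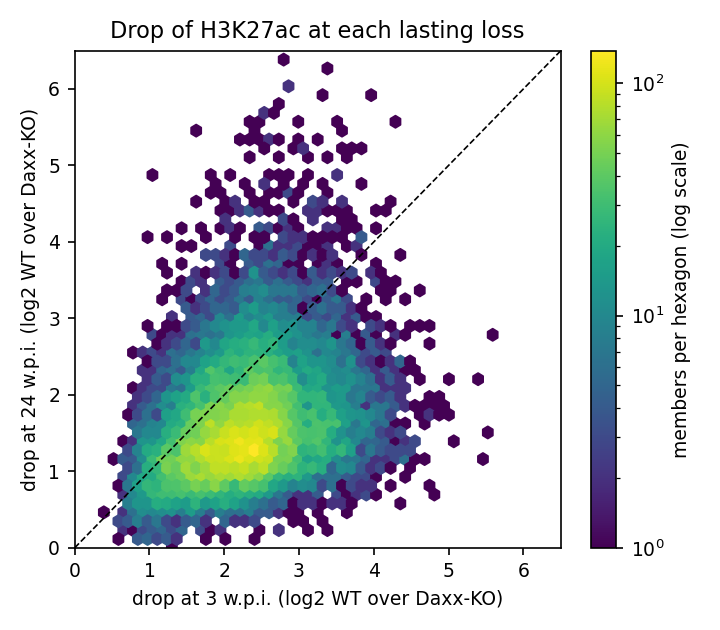
Drop of H3K27ac at each lasting loss at 3 w.p.i. (horizontal axis) and 24 w.p.i. (vertical axis), as log2 of WT over Daxx-KO with 1 added to each mean. Colour gives the number of sites per hexagon on a log scale, and the dashed line marks equal drops. Most sites (81.3%) lie below the line.

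The background of losses was high in both lists, which hold only sites that the authors' test picked. Daxx-KO values lay below all WT values at 108380 of 193657 sites at 24 w.p.i., or 56.0%, and at 59195 of 101434 sites at 3 w.p.i., or 58.4%. Most 24 w.p.i. losses had no listed counterpart at 3 w.p.i., since 22722 of 108380 (21.0%) overlapped a 3 w.p.i. site. Of those 22722, 15722 (69.2%) overlapped a 3 w.p.i. loss. Of the 15652 gains at 24 w.p.i. that overlapped a 3 w.p.i. site, 8415 (53.8%) overlapped a 3 w.p.i. loss. Gains, with all Daxx-KO values above all WT values, made up 41.3% of the 24 w.p.i. list and 39.2% of the 3 w.p.i. list. Lasting gains, the opposite set, counted 7086 sites. At the edge of the rule the nearest WT and Daxx-KO values nearly met. Just inside it, the site in Trio had 244 and 79.1 normalized counts in WT and 56.2 and 79.0 in Daxx-KO at 24 w.p.i. Near Fbxo48 the 3 w.p.i. values were 77.4 and 40.8 in WT and 15.5 and 40.8 in Daxx-KO. Just outside it, the 3 w.p.i. values near Stt3a were 48.4 and 11.0 in WT and 5.81 and 11.0 in Daxx-KO, and near Ccdc54 9.67 and 48.5 in WT and 9.69 and 4.25 in Daxx-KO.

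Most lasting losses lay away from promoters. Within 1 kb of an annotated transcription start site (TSS) lay 3642 (23.2%), and 12080 (76.8%) were distal. The promoter share was 15.9% among the 92658 losses at 24 w.p.i. without a listed loss at 3 w.p.i. (unmatched losses), 21.7% among the lasting gains and 19.5% among all listed sites. Of the distal sites, 8077 had their middle within a protein-coding gene and 4003 outside. The median distance to the nearest protein-coding TSS was 9420 bp, against 13100 bp for the unmatched losses and 11600 bp for all listed sites. Over 100 kb from any such TSS lay 6.6% of the lasting losses and 10.2% of all listed sites. The WT signal differed as well, with a median WT mean at 24 w.p.i. of 87.6 normalized counts, against 62.0 at unmatched losses. The part of signal strength in the distances was not tested.

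Promoter members had more signal and a smaller drop. Their median at 24 w.p.i. was 118 and 117 normalized counts in WT and 43.5 and 45.4 in Daxx-KO. Distal members had 82.7 and 79.1 in WT and 26.2 and 26.4 in Daxx-KO. The median drop was 1.31 at promoters and 1.56 at distal sites at 24 w.p.i., and 2.12 and 2.32 at 3 w.p.i. Lasting losses were on all 19 autosomes, making up from 6.93% (chromosome 19) to 9.22% (chromosome 6) of the listed sites. In base composition they hardly stood apart, with a median of 48.0% G and C in the middle 300 bp against 48.3% over all listed sites. The share of repeat-masked bases was 16.4% at the median, against 17.4%.

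Some sites lost nearly all of their signal at both times. The distal site with the largest drop, 199 kb from Lrrn1 (chr6:107728901-107729500), had 51.4 and 38.0 normalized counts in WT and 0 in both Daxx-KO libraries at 24 w.p.i. At 3 w.p.i. it had 25.8 and 11.0 in WT and again 0 in both Daxx-KO libraries. A site within Rab39, a gene of vesicle traffic, had 62.5 and 58.5 in WT and 0 in both Daxx-KO libraries at 24 w.p.i. At 3 w.p.i. it had 12.9 and 15.4 in WT and 0 in both. In Ank2, an ankyrin gene, the 24 w.p.i. values were 69.3 and 69.6 in WT and 1.5 and 2.93 in Daxx-KO. In Fggy, Gna14, Zbtb21 and Pde1c, and near Chst2, Tbc1d4 and Thbs2, the other distal sites of the 10 with the largest drop, no Daxx-KO value was above 4.5 at 24 w.p.i. These were weak sites, all with WT values under 70, so that a few reads decide the drop. The smaller drop of the 10 distal sites was 3.81 to 4.28 with 1 added to each mean, and 1.85 to 2.23 with 5 added.

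Among the 10 promoter sites with the largest drop, 6 lay at protein-coding genes and 4 at non-coding genes or pseudogenes. Cd36 encodes a scavenger receptor and fatty acid transporter. Its promoter site (chr5:17836151-17837150) had 42.5 and 57.0 normalized counts in WT and 1.5 and 5.85 in Daxx-KO at 24 w.p.i. At 3 w.p.i. it had 30.1 and 28.7 in WT and 0 and 1.7 in Daxx-KO. At Ext2, which encodes a polymerase of heparan sulfate, the 24 w.p.i. values were 50.3 and 40.3 in WT and 1.5 and 4.39 in Daxx-KO. At Fam20c, a kinase of secreted proteins, they were 44.7 and 32.4 in WT and 1.5 and 2.93 in Daxx-KO. The other 3 were at Olfr285, Cldn19 and Ccdc148, and the smaller of their drops at both times was 3.52, 3.5 and 3.36. The sites at non-coding genes and pseudogenes had Tmx1, Prss1, Nrep and Gsdmc as the nearest protein-coding genes, with a smaller drop from 3.67 to 4.02. With 5 added to each mean in place of 1, the smaller drop of the 10 promoter sites was 1.62 to 2.56.

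Lasting losses were spread over many genes. They were nearest to 6987 of 20780 protein-coding autosomal genes (33.6%), and 3626 of these had a single one. In 721 genes there were 5 or more and in 117 there were 10 or more. Of the 6987 genes, 2091 also had a lasting gain. The genes with the most were Mad1l1 with 26, Fyn with 24, Snx29 with 21, Ets1, Foxp1 and Myc with 20 each, Tiam1 with 18, and Btg1, Tent5c and Hdac4 with 17 each. Long genes and wide gene deserts collect more sites. As a share of the listed sites of the gene, the lasting losses made up 32.0% at Fyn, 28.8% at Tent5c, 27.8% at Ets1, 23.6% at Mad1l1, 23.5% at Myc and 10.4% at Foxp1. It was 20.5% at Btg1, 18.1% at Snx29, 15.1% at Tiam1 and 14.3% at Hdac4. Over all listed sites the share was 8.12%. These genes were chosen for their number of lasting losses, so that a share above 8.12% is in part set by the choice.

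Fyn, which encodes a kinase of the Src family, had 57 losses and 17 gains among 75 listed sites at 24 w.p.i., and no lasting gain. Summed over its 24 lasting losses, the 24 w.p.i. signal was 5745 and 5961 normalized counts in WT and 2014 and 1882 in Daxx-KO. The 3 w.p.i. sum was 704.9 and 1009 in WT and 257.8 and 175.0 in Daxx-KO. Myc, the growth regulator, had 64 losses and 19 gains among 85 sites and no lasting gain, and its 20 lasting losses lay from 12228 to 470903 bp from its TSS. Their sum was 1709 and 1722 in WT and 524.5 and 507.9 in Daxx-KO at 24 w.p.i. The 3 w.p.i. sum was 675.9 and 771.2 in WT and 185.1 and 150.4 in Daxx-KO. Ets1, a transcription factor of lymphoid cells, had a sum of 4496 and 4458 in WT and 1333 and 1388 in Daxx-KO at 24 w.p.i. The rule fixes the direction of these sums.

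Erythroid genes held the largest share of lasting losses among the 13 gene lists. Of their 196 listed sites, 37 (18.9%) were lasting losses, against 8.12% of all listed sites, and 1 (0.51%) was a lasting gain, against 3.66%. With the libraries set to equal reads per window or to equal medians, 32 and 29 of the 196 sites met the rule. Of 14 erythroid genes on autosomes 11 had a lasting loss, among them Klf1, Hba-a1, Hba-a2, Hbb-bs, Ermap, Zfpm1, Car2, Sptb, Slc4a1 and Ank1. Hbb-bt, Tfrc and Car1 had none. Over all lists 121 of 222 autosomal genes (54.5%) had a lasting loss, and over all protein-coding autosomal genes 33.6% did. The median drop was 1.86 at 24 w.p.i. and 2.53 at 3 w.p.i., against 1.5 and 2.28 over all lasting losses. Erythroid cells are a type that the c-Kit-positive gate can hold. The study reports that red blood cells and subpopulations of erythroblasts were reduced in Daxx-KO bone marrow with Mx1Cre. In the spleen it reports more erythroblasts, with normal red-cell counts in blood. These were not counts of the HSPCs profiled here, and their time after induction may differ. Neither the number of erythroid cells among these HSPCs nor their part in the values was tested here. Summed over the 37 sites, the signal was 6570 and 6260 in WT and 1800 and 1960 in Daxx-KO at 24 w.p.i. At 3 w.p.i. the sum was 1490 and 1510 in WT and 446 and 391 in Daxx-KO.

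The losses reached the promoters of the genes of haemoglobin and of the red-cell membrane. The genes named in this paragraph were chosen after their values were seen. At Slc4a1 (chr11:102362501-102366900), the site of the first sequence above, the 24 w.p.i. values were 707 and 797 normalized counts in WT and 168 and 167 in Daxx-KO. At 3 w.p.i. they were 41.9 and 51.9 in WT and 5.81 and 4.25 in Daxx-KO. At Ermap, which encodes an erythroid membrane protein, they were 132 and 83.8 in WT and 16.5 and 1.46 in Daxx-KO at 24 w.p.i. At 3 w.p.i. Ermap had 221 and 131 in WT and 48.5 and 73.9 in Daxx-KO. The alpha-globin promoter site at Hba-a1 had 149.7 and 152 in WT and 15.0 and 23.4 in Daxx-KO at 24 w.p.i. The site at Hba-a2 had 134 and 131 in WT and 25.5 and 41.0 in Daxx-KO. These near-identical copies can share reads, so their separate values are uncertain. The beta-globin site at Hbb-bs had 239 and 278 in WT and 103 and 136 in Daxx-KO. Klf1, a transcription factor of red-cell genes, lay at the edge of the rule: at 3 w.p.i. its promoter site had 24.7 and 104 in WT and 24.2 and 18.7 in Daxx-KO.

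**Figure D3:**
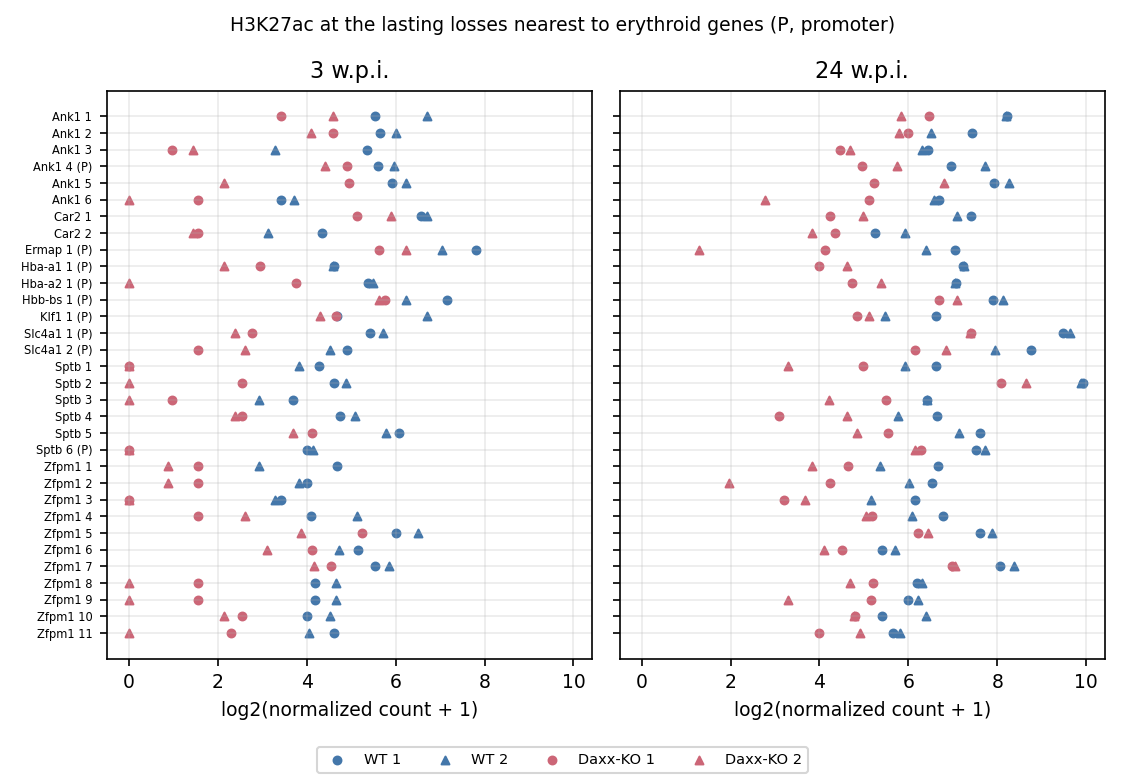
H3K27ac as log2(normalized count + 1) at 32 of the 37 lasting losses nearest to erythroid genes, in each WT (blue) and Daxx-KO (red) library, with circles for replicate 1 and triangles for replicate 2. Sites are numbered along the chromosome within each gene, and P marks promoter sites. The groups are apart at every site shown, as the rule requires, with the narrowest gap at Klf1 at 3 w.p.i.

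Neutrophil granule genes, which encode the proteases and antimicrobial proteins of neutrophils, were at the other end. Of their 124 listed sites 1 (0.806%) was a lasting loss and 35 (28.2%) were lasting gains, and with equal reads per window these counts were 1 and 35. The single loss lay 29015 bp from Fcnb, a ficolin gene. It had 36.9 and 35.6 normalized counts in WT and 13.5 and 19.0 in Daxx-KO at 24 w.p.i. Of 15 such genes 12 had a lasting gain, against 3743 of the 20780 protein-coding autosomal genes.

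T-cell and NK-cell genes had 12 lasting losses among 95 sites (12.6%) and 4 lasting gains. With equal reads per window or equal medians 9 (9.47%) and 8 (8.42%) of the sites met the rule, against 6.49% and 5.84% of all sites. The gate for HSPCs was lineage-negative, and in WT HSPCs sites of genes that define T cells carried signal. Of 14 genes of the list on autosomes, 9 (64.3%) had a lasting loss, against 54.5% of the genes of all lists. Cd3e had none, and of its 3 listed sites at 24 w.p.i. 1 was a loss and 2 were gains. At Lck, the kinase of T-cell receptor signalling, the promoter site (chr4:129571201-129574250) had 495 and 627 normalized counts in WT and 115 and 110 in Daxx-KO at 24 w.p.i. Its 3 w.p.i. values were 17.2 and 9.93 in WT and 1.94 and 0 in Daxx-KO. At Cd8a a distal site had 89.4 and 127 in WT and 16.5 and 39.5 in Daxx-KO at 24 w.p.i. Summed over the 12 sites, the 24 w.p.i. signal was 1490 and 1690 in WT and 578 and 574 in Daxx-KO. The part of T and NK cells among the HSPCs in these values was not tested.

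Lymphoid genes had 76 lasting losses among 801 listed sites (9.49%) and 52 lasting gains (6.49%), and 21 of 28 genes had at least 1 lasting loss. Beside Ets1, Bcl11a had 11 and the Ikaros gene Ikzf1 had 6. The largest drops lay at Bcl11b and Tcf3, which encode transcription factors of T-cell and B-cell development. The Bcl11b site, within the gene, had 96.1 and 97.3 normalized counts in WT and 6.74 and 14.6 in Daxx-KO at 24 w.p.i. At Tcf3 the values were 78.2 and 59.3 in WT and 3.0 and 10.2 in Daxx-KO. Flt3, Pax5, Rag1, Rag2, Dntt and Cd79a were among those without a lasting loss.

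HSC and self-renewal regulators had 75 lasting losses (8.46% of 887 sites), close to the share over all sites, but more lasting gains, 110 (12.4%). They were thus mixed. Myc had 20 of the 75 losses and none of the 110 gains. Runx1 had 13 losses and 15 gains, Etv6 8 and 25, Erg 2 and 22, and Meis1 1 and 9. At Etv6 the site of largest drop had 142 and 48.2 normalized counts in WT and 12.0 and 2.93 in Daxx-KO.

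Myeloid transcription factors had 31 lasting losses (6.02% of 515 sites) and 37 lasting gains. Spi1 had no lasting loss and 3 lasting gains. Klf4 had 9 losses, and the one of largest drop lay 431609 bp from its TSS, with 132 and 262 normalized counts in WT and 18.0 and 2.93 in Daxx-KO at 24 w.p.i. Jun had 6 losses and 3 gains, and Gfi1b, a repressor of erythroid and megakaryocyte cells, had 5 losses and no gain. Near Cebpa, the driver of granulocyte fate, 1 site was a lasting loss, with 46.9 and 39.5 in WT and 0.75 and 7.32 in Daxx-KO at 24 w.p.i., and 2 were lasting gains.

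For the other lists the shares ran from 5.31% to 9.33%. Genes of H3K27 acetylation writers, erasers and readers had 43 of 461 sites (9.33%), with Ncor1, a partner of histone deacetylases, at 35.8 and 55.4 in WT and 2.25 and 5.85 in Daxx-KO at 24 w.p.i. Megakaryocyte genes had 15 of 180 (8.33%), growth factor and cytokine receptor genes 38 of 461 (8.24%), and interferon and dsRNA-sensing genes 19 of 243 (7.82%). With equal reads per window or equal medians the interferon genes had 12 (4.94%) and 9 (3.7%), the receptor genes 25 (5.42%) and 22 (4.77%), and the myeloid transcription factors 21 (4.08%) and 18 (3.5%), against 6.49% and 5.84% of all sites. Ifih1, a sensor of double-stranded RNA, had 44.7 and 34.0 in WT and 1.5 and 4.39 in Daxx-KO at 24 w.p.i. at a site within the gene. H3.3 genes and chaperones had 9 of 116 (7.76%), mast-cell and basophil genes 8 of 108 (7.41%), and stromal and endothelial genes 11 of 207 (5.31%). At the endothelial gene Cdh5 the promoter site had 123 and 88.6 in WT and 21.0 and 13.2 in Daxx-KO. The sums over the mast-cell and basophil members were 1180 and 1190 in WT and 387 and 489 in Daxx-KO, and over the stromal and endothelial members 1220 and 1090 in WT and 507 and 460 in Daxx-KO. Their part in the losses was not tested.

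**Figure D4:**
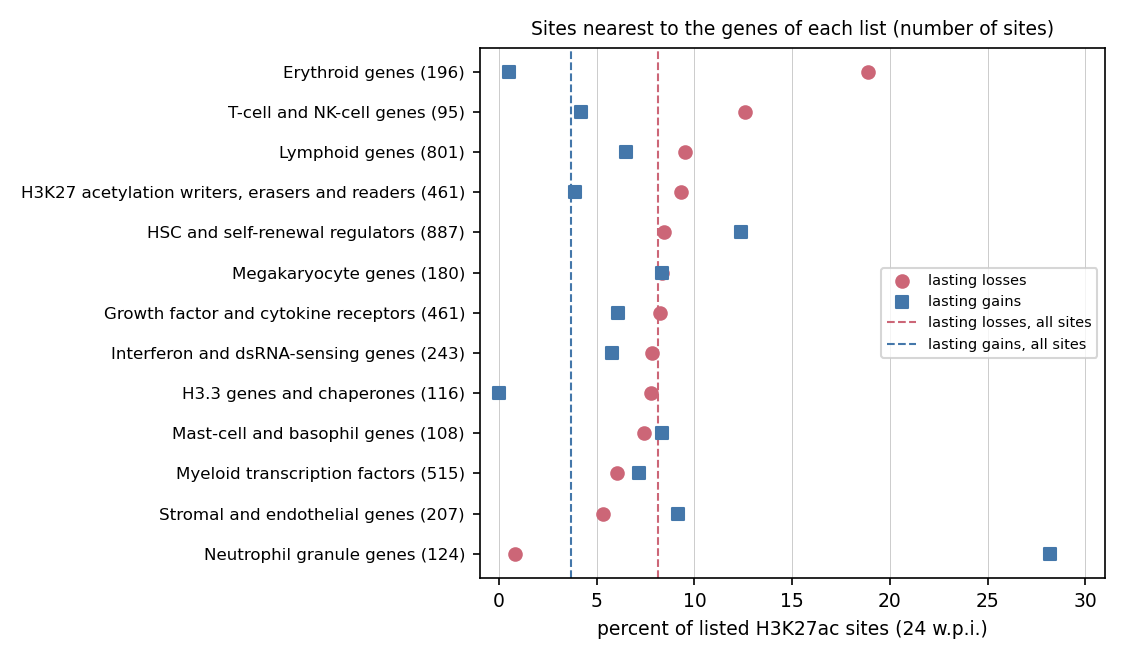
Share of the listed 24 w.p.i. H3K27ac sites nearest to the genes of each list that were lasting losses (red circles) or lasting gains (blue squares), with the number of sites in brackets and the share over all sites as dashed lines. Erythroid genes have the highest share of losses (18.9%) and neutrophil granule genes the lowest (0.806%), and the latter have the highest share of gains (28.2%).

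Daxx itself held a lasting loss within the gene body, where the methods place the floxed exons. The site (chr17:33909801-33913400) had 858 and 368 normalized counts in WT and 113 and 93.7 in Daxx-KO at 24 w.p.i. The 3 w.p.i. values were 65.5 and 105 in WT and 24.2 and 13.6 in Daxx-KO. Reads from deleted DNA are missing, so lost template and lost acetylation cannot be told apart there. A Pu.1 site at its 3′ end (chr17:33912801-33913750) had 63.3 and 44.2 in WT and 0 in both Daxx-KO libraries at 24 w.p.i. Beside it at 24 w.p.i. were sites of both directions. The site upstream (chr17:33908401-33909500) had 775 and 581 in WT and 1570 and 1040 in Daxx-KO, and one downstream (chr17:33914651-33916950) had 712 and 914 in WT and 1870 and 1620 in Daxx-KO. The next one (chr17:33916551-33917700) had 250 and 233 in WT and 130.0 and 108 in Daxx-KO. Without the 5 Mb around Daxx and around Spi1, to either side, 15529 lasting losses were counted.

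The other marks at the lasting losses were measured with other antibodies, so they were independent of the rule, though at 24 w.p.i. they came from the same mice. With 2 libraries per group an exact two-sided permutation test cannot give a p under 0.333, and with 3 not under 0.1, so single sites were not tested and are given by whether the groups overlap. Pu.1 was listed at 5194 lasting losses (33.0%) at 24 w.p.i., was lower in both Daxx-KO libraries at 3070 (19.5%) and higher at 2419 (15.4%). Over all listed H3K27ac sites these shares were 17.3% and 13.7%. In the Pu.1 table as a whole, 51.3% of sites were lower and 46.9% higher. At 3 w.p.i. Pu.1 was lower at 11.6% of the lasting losses and higher at 17.1%, against 8.99% and 16.7% of all H3K27ac sites, with 44.0% and 54.1% of the whole table. H3.3 was lower at 16.3% and higher at 17.5% at 24 w.p.i., against 14.3% and 15.2% of all H3K27ac sites, with 47.0% and 51.3% of its table. At 3 w.p.i. H3.3 was lower at 10.1% and higher at 15.8%, against 7.58% and 15.8%, with 40.7% and 57.7% of its table. For both proteins the direction at the lasting losses was thus close to that at any listed H3K27ac site, and sites of both directions were frequent. At 3 w.p.i. WT replicate 2 stood apart in depth for both proteins, with 3.06 and 2.75 reads per window for H3.3 and Pu.1 against 22.88 and 33.78 in WT replicate 1. In normalized counts per window it was WT replicate 1 that stood apart, with 16.0 and 17.7 against 8.05 and 8.87 in WT replicate 2. The Daxx-KO libraries had 7.43 and 8.29 for H3.3 and 8.94 and 9.75 for Pu.1. Without WT replicate 2 Pu.1 was lower at 1835 and higher at 2752 lasting losses, in place of 1824 and 2681. H3.3 was lower at 1596 and higher at 2541, in place of 1590 and 2487. With a library left out, these counts could not fall.

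At 3 w.p.i. the direction went with the place. Among members where Pu.1 was lower or higher, the share that was lower was 27.8% at promoters and 45.1% at distal sites. Over all H3K27ac sites these shares were 21.6% and 39.6%, so that the split is not particular to the lasting losses. For H3.3 it was 30.8% at promoters and 42.1% at distal members, against 22.9% and 35.8%. At 24 w.p.i. the Pu.1 shares were 57.2% and 55.5%. Both proteins were lower at 386 members at 3 w.p.i. (2.46%, against 1.46% of all sites) and at 650 at 24 w.p.i. (4.13%, against 3.21%).

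H3K9me3 was listed at 1.37% and 1.18% of the lasting losses at 3 and 8 w.p.i., against 1.7% and 1.68% of all H3K27ac sites. At 24 w.p.i. it was listed at 14.1% of the lasting losses, against 13.5% of all H3K27ac sites. At each time H3K9me3 was higher in Daxx-KO at more of these lasting losses than it was lower. At 24 w.p.i. it was higher at 1502 (9.55%) and lower at 704 (4.48%), against 8.65% and 4.81% of all H3K27ac sites, with 46.9% and 50.3% of its table. At 3 w.p.i. it was higher at 157 and lower at 59, which makes 27.3% lower of those changed. That share was 42.6% over all H3K27ac sites and 44.9% at lasting gains, and in the table as a whole 21.0% of sites were lower and 78.6% higher. At 8 w.p.i. H3K9me3 was higher at 128 (0.814%) and lower at 43 (0.274%), against 1.03% and 0.505% of all H3K27ac sites. That makes 25.1% lower of those changed, against 32.9% over all H3K27ac sites. In the table as a whole 57.6% of sites were higher and 31.5% lower. H3K9me3 was higher at 3, 8 and 24 w.p.i. at 29 members (0.184%, against 0.0852% of all sites).

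H3K27me3 at 24 w.p.i. was lower at 2280 lasting losses (14.5%) and higher at 814 (5.18%), against 14.5% and 5.25% of all H3K27ac sites, with 56.8% and 40.8% of its table. The shares at lasting losses were thus close to those at any listed site. At lasting gains H3K27me3 was lower at 19.3% and higher at 3.5%. Within the members, promoters had a higher H3K27me3 site at 8.43% and a lower one at 21.9%, against 6.05% and 25.3% of all promoter sites. At 8 w.p.i., DKO against WT, H3K27me3 was higher at 420 members and lower at 148, which makes 26.1% lower of those changed against 40.2% over all H3K27ac sites. Over that whole list 42.5% of sites were lower and 46.8% higher. DKO H3K9me3 was higher at 61 members and lower at 21, with 47.7% and 17.9% of its table. That makes 25.6% lower of those changed, against 45.1% over all H3K27ac sites. The numbers for H3K9me3 are small. In DKO both Pu.1 and Daxx were deleted, and the comparison with WT alone does not tell their parts apart. The comparison of DKO with Daxx-KO was not used here, and the part of each gene was not tested.

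**Figure D5:**
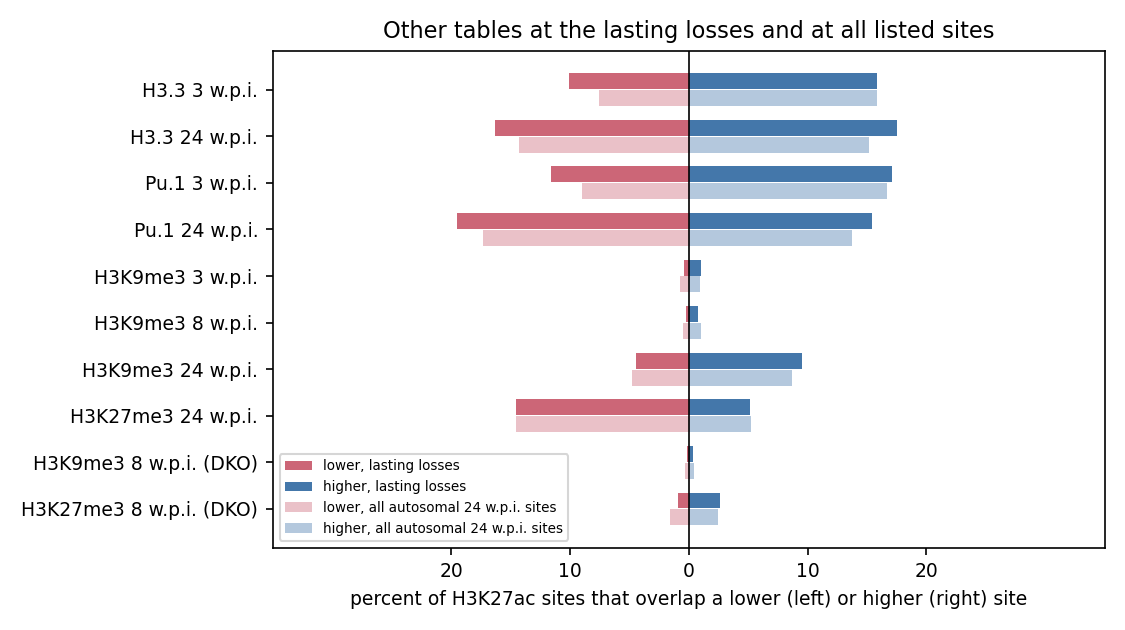
Percent of the 15722 lasting losses (full colour) and of all 193657 listed H3K27ac sites (pale) that overlapped a site of another table with all knockout values below (left, red) or above (right, blue) all WT values. The full and pale bars are of similar length in most tables, for instance 14.5% and 14.5% for lower H3K27me3 at 24 w.p.i.

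At 3969 lasting losses (25.2%) no other Daxx-KO table had a site, against 28.4% of all H3K27ac sites, at 8125 (51.7%, against 48.0%) at least 1 of the 8 tables had a lower one, and at 8319 (52.9%, against 50.5%) a higher one. The most was 6 tables, at 5 sites. 1 of them lay 22968 bp from Amer3 (chr1:34602151-34603100), where H3.3 was lower at 24 w.p.i., Pu.1 at 3 and 24 w.p.i., and H3K9me3 at 3, 8 and 24 w.p.i. It lies beside a block of H3K9me3 (chr1:34602551-34606050) that had 721 and 765 normalized counts in WT and 311 and 342 in Daxx-KO at 24 w.p.i. At 3 w.p.i. that block, as listed there, had 314 and 337 in WT and 119 and 108 in Daxx-KO. In the DKO comparison the block had 193, 132 and 218 in WT and 21.6, 34.5 and 41.4 in DKO at 8 w.p.i. H3K27ac at the site was modest, with 84.9 and 83.1 in WT and 40.5 and 54.2 in Daxx-KO at 24 w.p.i. Next to the lower Pu.1 site, a second Pu.1 site (chr1:34602551-34603150) was higher at 24 w.p.i., with 8.64 and 18.9 in WT and 61.4 and 47.0 in Daxx-KO.

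Other sites with several lower marks were at Nav2, a gene of neuronal guidance, and 122786 bp from Adam6b, the nearest protein-coding gene. The Nav2 site (chr7:49299551-49301500) had H3K27ac of 111 and 180 in WT and 21.0 and 38.1 in Daxx-KO at 24 w.p.i. Pu.1 there was 63.3 and 146 in WT and 0 and 8.36 in Daxx-KO, and H3.3 was 107 and 63.9 in WT and 5.52 and 0 in Daxx-KO. Near Adam6b (chr12:113366201-113367250) H3.3 was 47.0 and 44.2 in WT and 0 in both Daxx-KO libraries at 24 w.p.i., and Pu.1 was 56.1 and 66.3 in WT and 30.0 and 0 in Daxx-KO. H3K27me3 was lower there too, at 84.0 and 51.4 in WT and 27.1 and 14.7 in Daxx-KO, whereas H3K9me3 was higher, at 9.33 and 0 in WT and 79.1 and 73.0 in Daxx-KO. A long site within Dagla (chr19:10275501-10281600), a lipase gene, had H3K27ac of 1900 and 1790 in WT and 259 and 465 in Daxx-KO at 24 w.p.i. At 24 w.p.i. H3.3 was higher at a pair of sites along it and lower at another, and Pu.1 was lower.

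The words of 7 transcription factor families were counted on both strands in the middle 300 bp of each site. The GATA word AGATAAG was in 4.94% of the lasting losses, 3.8% of the lasting gains and 3.74% of all listed sites. The Pu.1 word GAGGAAGT was in 3.24% of the lasting losses, 3.06% of the gains and 2.59% of all sites. For the C/EBP word TTGCNNAA the shares were 10.1% of lasting losses, 12.5% of lasting gains and 10.4% of all sites. For the Runx word TGTGGTT they were 7.3%, 8.96% and 7.25%, in that order. The AP-1 word TGANTCA had 9.29%, 9.61% and 8.68%, and the E-protein word CACCTG had 22.8%, 22.7% and 23.6%. The Sp and Klf word GGGCGGG had 3.17%, 4.6% and 4.02%. In these middle windows the GATA and Pu.1 words were thus, over all 3 sets, most frequent in the lasting losses. In whole sites the GATA word was in 15.4% of the lasting losses and 13.9% of the lasting gains. The Pu.1 word had the reverse order there, with 10.1% of the lasting losses and 11.4% of the lasting gains. In the middle windows the C/EBP, Runx, AP-1 and Sp and Klf words were most frequent in the lasting gains, and the E-protein word over all listed sites. In whole sites the E-protein word was in 55.1% of lasting losses, 58.3% of lasting gains and 51.9% of all listed sites. At promoters GGGCGGG was in 5.57% of the lasting losses and in 10.4% of all promoter sites.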

How the data were processed

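Haematopoietic stem and progenitor cells of WT, Daxx-KO and DKO mice were profiled by CUT&Tag. The submitters' processing notes name CASAVA 1.8.4, cutadapt 1.13, STAR 2.5.3 and bedtools and the build mm10. Per the file headers, the authors compared groups with diffReps 1.55.6 in windows of 600 bp moved by 50 bp (fragment size 100 bp, negative binomial test, p cutoff 0.0001). The 24 w.p.i. tables leave out chromosomes X and Y. The deposited value of a site in a library is a normalized count, the reads divided by a constant given in the header. The authors' averages, enrichments, fold changes and p-values in the same tables were not used. A table lists only sites past the cutoff, so a site that is not listed is not known to be unchanged.

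The number of tables used was 12, and 3 were not used. A pair of them compares DKO with Daxx-KO, and in the other the header names H3K9me3 libraries as the controls for H3K27me3. Libraries were matched by mouse number and grouped by the labels. WT replicate 1 of H3.3 and Pu.1 at 3 w.p.i. has no mouse number and was matched as the wild-type library of its mark. Chromosome names and lengths fit GRCm38.p6. Sites with all knockout values below all WT values were losses. TSSs were from GENCODE M21, and each site was given to 1 protein-coding gene, that whose TSS lay nearest to its middle. Words were searched on both strands. No test was run, since the H3K27ac values chose the members. Members and gene lists were chosen with earlier results of these data known. Named sites were, by rule, the 10 promoter and 10 distal sites with the largest drop (the smaller of both times), the 10 genes with the most sites, at most 2 genes per list, Daxx and Spi1, the 10 sites at which the most other tables were lower, and sites at the edge. Not every site the rule names is described, and some items are not reported here. The average reads per window were 1.33 to 10.3 for H3K27ac and 0.21 to 33.78 in the other tables, and the shallow libraries are the less precise. Functions were tested on simulated data. Python 3.11.15, numpy 2.4.6, pandas 2.3.3, scipy 1.17.1 and matplotlib 3.10.9 were used.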

Additional observations from a re-analysis of the deposited data

Results flagged for a closer look

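Where the groups did not overlap at either time but the directions were opposite, the result was set aside for a closer look. The difference between the times was not tested in any of these cases. H3K27ac was a loss at 24 w.p.i. that overlapped a gain at 3 w.p.i. at 6771 sites, and a gain at 24 w.p.i. that overlapped a loss at 3 w.p.i. at 8415 sites. At the lasting losses, Pu.1 was higher at 3 and lower at 24 w.p.i. at 734 sites and lower at 3 and higher at 24 w.p.i. at 348. H3.3 was higher at 3 and lower at 24 w.p.i. at 529 sites, and lower at 3 and higher at 24 w.p.i. at 338. These shares of the lasting losses (4.67%, 2.21%, 3.36% and 2.15%) stand beside 4.1%, 1.53%, 2.91% and 1.4% of all listed H3K27ac sites. A site can overlap several sites of another table and count in both directions.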

How the results depend on the processing

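The number of lasting losses, 15722, depended most on how sites were matched and on weak sites. Sites within 1 kb of each other gave 26709, and a WT mean of at least 20 normalized counts in both tables gave 8801. Within 1.5 times of 15722 were an overlap of at least 50% (11412), equal medians (11307), equal reads per window (12572, chosen after seeing the data), a WT mean of at least 2 times the Daxx-KO mean with any overlapping 3 w.p.i. site (13254), joined sites (14219) and sites under 50% masked (14695). Leaving out each library in turn gave 15766 to 15993. With a library left out the rule asks for less, so the count could not fall below 15722. The promoter share of 23.2% was 37.8% with promoters of 3 kb, 13.8% with 250 bp, 23.9% with the 50% overlap, 22.4% within 1 kb and 28.1% with the WT mean of at least 20. The 8125 members with a lower site in another table were 4742 with that WT mean. The Pu.1 word was in 3.24% of the middle windows and in 10.1% of whole sites of the lasting losses. At the lasting gains it was in 3.06% and 11.4%, so the order of these sets turned with the window. Of 121 list genes with a lasting loss, 107 had one within 50 kb. With a pseudocount of 5, 43 of 67 named drops moved by more than the spread between replicates and 0 were reversed. Leaving out WT replicate 2 at 3 w.p.i. (also chosen after seeing the data), the library with the fewest reads for Pu.1 and H3.3 there, gave 1835 lower and 2752 higher Pu.1 members in place of 1824 and 2681. These counts could not fall either. No paired analysis was possible because the results come from no test. The 3 w.p.i. depth limits the smallest drop that can be seen.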
